A study of Homo sapiens with 8 samples.

Results

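HuCCT1 is an established human cell line from an intrahepatic cholangiocarcinoma, a cancer of the bile duct epithelium within the liver. A subline of HuCCT1 that carried the first short hairpin RNA against BEX2, shBEX2-1, was compared with HuCCT1 cells that carried the vector shControl. Each had 2 single-colour Agilent expression arrays, so that 4 of the 8 arrays of the series entered the comparison, and the members were these 4 arrays, chosen by their labels. The other 4 arrays held cells with a second hairpin against BEX2, shBEX2-2 (2 arrays), and with the vector shNontarget (2 arrays). The study's methods describe retroviral vectors for the hairpins, where the labels speak of transfection, and the labels give both shControl and shNontarget as controls. The sources used here describe a hairpin against luciferase as control but do not say which vector held it. Nor do they say whether a subline is 1 clone or whether the 2 arrays of a vector held separate cultures, so that p-values measure only the spread between these arrays, which may be technical. The main comparison asks which RNAs differ between cells with a hairpin against BEX2 and cells with a control vector. The target sequences that the methods list for the 2 hairpins are close to reverse complements of each other, so that both may lie at the same site, and the strand that each matches is not stated.

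The intensity of each spot was expressed relative to the 75th percentile of its array, and levels are given as a percentage of that percentile (relative intensity). Between 60.8% and 63.2% of the 58717 non-control spots were well above background on the 4 arrays and 0 spots were saturated. The 75th percentile lay between 730.3 and 838 in shControl cells and between 441 and 514 in shBEX2-1 cells. A gene was tested if at least 2 of the 4 arrays read its brightest probe well above background, which left 20541 genes, and a gene was called if limma gave an adjusted p under 0.05. The 2 arrays of a vector resembled each other, with 421 genes (2.05%) apart by more than 1 on the log2 scale in shControl cells and 384 (1.87%) in shBEX2-1 cells. The shNontarget arrays stood apart from each other at 7155 genes (34.8%), and were left out of the fit. With them as control in place of shControl, 0 genes were called by limma, where 1535 had an unadjusted p under 0.05. The shControl arrays lay in row 1 of the slide and the shBEX2-1 arrays in row 2, so that slide row and group cannot be told apart. The number of arrays limits the precision, and an exact permutation test of 2 against 2 arrays cannot go below p = 0.333.

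In all, 7761 genes (37.8%) were called, of which 3940 (19.2%) were higher and 3821 (18.6%) lower in shBEX2-1 cells. Of these, 1760 changed by more than 1 on the log2 scale, 978 upward and 782 downward. With normexp background correction the split was 6883 higher and 3379 lower, 67.1% higher in place of 50.8%, and the median over all genes moved from 0.041 to 0.16 on the log2 scale. That correction added an offset of 50 to every intensity before scaling, which weighs more on dim probes and dim arrays. The part of the offset in this split was not tested. Student's t-test, which the study's methods name for differences between experimental groups, called 0 genes after adjustment for multiple tests. It gave 6843 at an unadjusted p under 0.05, where limma gave 9939. For the arrays the methods name a rank product, which was not run here.

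BEX2 belongs to the brain expressed X-linked genes, small and largely disordered proteins encoded on the X chromosome beside the related TCEAL genes. A short hairpin RNA is cut in the cell to a small interfering RNA that guides the destruction of a matching transcript, so the level of BEX2 itself checks the labels. BEX2 was read by 1 probe, A_33_P3245178 and was placed by the array files on chromosome X of hg19 from 102564430 to 102564489. Its relative intensity was 9.72 and 6.65 in shControl cells and 2.70 and 2.15 in shBEX2-1 cells, and both shBEX2-1 readings were not well above background. By these readings BEX2 was 3.33-fold lower in shBEX2-1 cells, with a fitted log2 fold change of -1.74 (SE 0.29, adjusted p = 0.00583). This fold rests on the probe's own dim readings and is not a firm minimum. The probe read close to background, and with normexp background correction the log2 fold change was -0.27 (SE 0.17, adjusted p = 0.21), no longer past the threshold. That correction added 50 to each intensity. The probe's processed intensity was 71.0 and 55.7 in shControl cells and 11.9 and 11.1 in shBEX2-1 cells. In shBEX2-2 cells the level was 3.30 and 4.12, and the difference between the sublines was -0.61 (SE 0.28, adjusted p = 0.195).

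Of the 14 genes of the BEX and TCEAL family 13 were on the array by name and 10 could be tested. Of these 10, 4 were higher and 3 lower (70% called, against 37.8% of all genes). BEX5 rose most, from 18.9 and 17.5 in shControl cells to 32.2 and 30.8 in shBEX2-1 cells, with a log2 fold change of 0.79 (SE 0.12, adjusted p = 0.00369). TCEAL8 (0.37), TCEAL5 (0.36) and TCEAL6 (0.30) also rose, though all 3 calls were lost without shControl replicate 2. That of TCEAL5 was also lost with quantile normalization, with normexp correction and without shBEX2-1 replicate 1, and that of TCEAL6 when any 1 of the 4 arrays was left out. TCEAL9, named WBP5 on the array, fell by 0.59 (SE 0.11, adjusted p = 0.00697) and TCEAL4 fell by 0.36 (SE 0.083, adjusted p = 0.0179) on the log2 scale, the latter call being lost when any 1 of the 4 arrays was left out. BEX3, named NGFRAP1, had a log2 fold change of 0.17, TCEAL1 of 0.031 and TCEAL2 of -0.037, none past the threshold, and their signs changed with quantile normalization (BEX3) or normexp correction (TCEAL1 and TCEAL2). None of the 4 arrays read BEX4 well above background, and BEX1 rose above it on shControl replicate 1 alone, where it read 13.3 against 0.592 to 0.789 on the other 3 arrays.

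**Figure D1:**
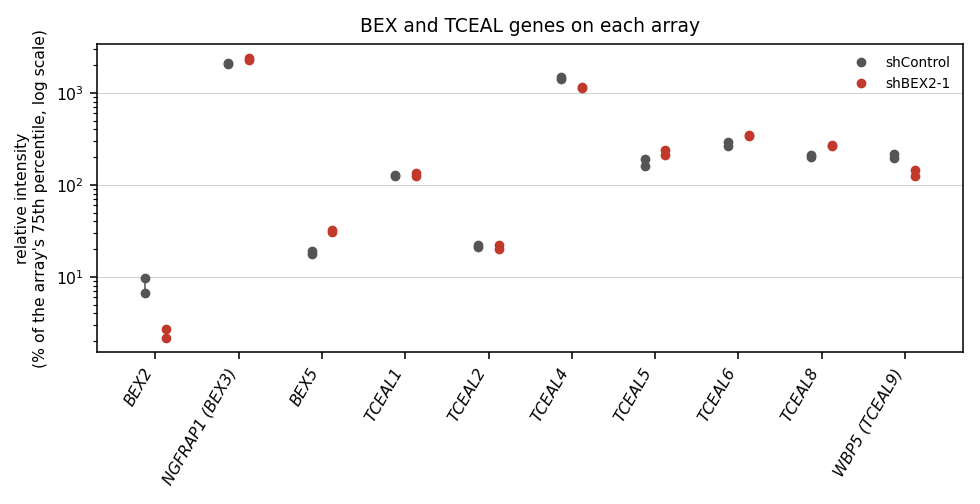
Relative intensity of the 10 tested BEX and TCEAL genes, in percent of the array's 75th percentile on a log scale, with 1 point for each array and a line joining the 2 arrays of a vector. BEX2 fell from 9.72 and 6.65 to 2.70 and 2.15, while BEX5 rose from 18.9 and 17.5 to 32.2 and 30.8.

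Genes of the cell division cycle rose more widely than those of any other of the 38 lists. Before S phase, the origin recognition complex, CDC6 and CDT1 load the MCM helicase on DNA, and CDC45 and the GINS complex switch it on. Of 28 origin licensing genes, all tested, 25 were higher and 0 lower in shBEX2-1 cells (89.3% called, against 37.8% of all genes), with a median log2 fold change of 1.41 against 0.041 for all genes. CDC45, named CDC45L on the array, had a relative intensity of 145 and 143 in shControl cells and 595 and 557 in shBEX2-1 cells. It rose 4.0-fold, a log2 fold change of 2.00 (SE 0.080, adjusted p = 0.000188). GINS1 rose by 1.88 and MCM10, which recruits CDC45, by 1.88 (SE 0.16, adjusted p = 0.000641). The licensing factor CDT1 rose from 133 and 124 to 409.7 and 384, a log2 fold change of 1.63 (SE 0.086, adjusted p = 0.000199), and CDC6 by 1.67. MCM2 and MCM3, subunits of the helicase, rose by 1.08 and 1.33.

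Among the 42 genes of the replication fork, 38 were higher and 1 lower, with a median of 1.17. CLSPN, which encodes the checkpoint mediator claspin, read 7.94 and 7.197 in shControl cells and 55.8 and 38.3 in shBEX2-1 cells, and all shBEX2-1 values lay far above those of shControl. Its log2 fold change was 2.61 (SE 0.20, adjusted p = 0.000429), the highest of the list. HELLS, a chromatin remodeller, rose by 2.03 and its other probe read 2.05. TK1, the thymidine kinase of S phase, rose by 1.93, and PCNA, the sliding clamp of DNA polymerase, by 1.36 (SE 0.080, adjusted p = 0.000240). POLD4, the small subunit of DNA polymerase delta, was the gene of this list that fell, by 0.33 on the log2 scale (adjusted p = 0.0423), and lost the call without either shControl array, without shBEX2-1 replicate 1 and with median scaling.

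Genes that act later in the cycle rose with them. The kinetochore ties chromosomes to the spindle, and 50 of 51 kinetochore and spindle genes were higher and 0 lower, with a median of 1.53. SGO1, named SGOL1 on the array, which protects the cohesion of sister chromatids, rose from 19.4 and 18.4 to 124 and 89.7, a log2 fold change of 2.48 (SE 0.16, adjusted p = 0.000302). CENPW (C6orf173 on the array) rose by 2.07, SPC25 of the NDC80 complex by 2.01 and CENPA, the histone variant of centromeres, by 1.72. Of 48 tested mitotic kinases, cyclins and regulators, 44 were higher and 2 lower, with a median of 1.55. E2F1, a transcription factor of S phase genes, rose by 2.14 (SE 0.092, adjusted p = 0.000188) and CCNA2, which encodes cyclin A2, from 50.2 and 43.8 to 199.5 and 192, by 2.06. CDCA3 (2.08), CDK1 (CDC2 on the array, 1.80), CCNE2 (1.73), PLK1 (1.599), CCNB1 (1.48) and TOP2A (0.91) rose as well. Cells with shNontarget, the other vector labelled as control, also had positive medians against shControl. They were 0.22 for origin licensing, 0.21 for the replication fork, 0.61 for kinetochore and spindle and 0.55 for mitotic regulators. With shNontarget as control the shBEX2-1 medians were 1.08, 0.93, 0.93 and 0.95 in the same order.

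MKI67, which encodes the proliferation marker Ki67, read 149.7 and 147 in shControl cells and 672 and 531 in shBEX2-1 cells. The groups lay far apart, with a log2 fold change of 2.01 (SE 0.12, adjusted p = 0.000263), and its other probes read 1.27 and 1.51. The cyclin D1 and CDK4 pair of G1 went the other way by a small amount. CDK4 fell by 0.32 (adjusted p = 0.0323) and CCND1 by 0.28 (adjusted p = 0.0482) on the log2 scale, and both lost the call with median scaling in place of the 75th percentile and without either shControl array. Of 47 DNA repair genes, 38 were higher and 1 lower, with a median of 0.98. BRIP1, a helicase that works with BRCA1, rose from 12.4 and 7.74 to 47.1 and 38.9, by 2.13 (SE 0.24, adjusted p = 0.00145), and FANCB (2.03) and BRCA1 (1.66) rose too. MUS81, an endonuclease for branched DNA, fell by 0.24 (adjusted p = 0.0474), a call lost when any 1 of the 4 arrays was left out.

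Promoters of genes that rose at these steps are shown because a pair of DNA elements are known to time them. E2F factors act through sites with letters such as GGCGGGAA in promoters of S phase genes, and the DREAM and MMB complexes act through the cell cycle genes homology region, CHR, with the letters TTTGAA, in promoters of mitotic genes. The promoters are those of RefSeq on GRCh38.p14, from 250 bases before to 50 bases after the first listed start of each gene, and were searched on both strands. GGCGGGAA lay in 13 of 55 (23.6%) promoters of the origin licensing and replication fork genes that were called higher, and in 3.18% of all 27305 promoters. TTTGAA lay in 40 of 74 (54.1%) promoters of the kinetochore, spindle and mitotic genes that were called higher, and in 15.4% of all 27305 promoters. The reverse pairing gave 4 of 55 (7.27%) for TTTGAA in the first set and 6 of 74 (8.11%) for GGCGGGAA in the second. The lists were compiled by hand from genes with known roles, so these shares describe the lists and do not test the changes. No share was taken for members that were not called. Promoters were found for 55 of the 63 called members of the first set and 74 of the 94 of the second. A match is a description of the letters and not of a bound site. The last 100 bases before the start of CDT1, at chr16:88803689-88803788 (+), of MCM3, at chr6:52284743-52284842 (-), and of PCNA, at chr20:5126623-5126722 (-), are given here with GGCGGGAA in capitals, each read 5′ to 3′ on the strand of the gene.
CDT1: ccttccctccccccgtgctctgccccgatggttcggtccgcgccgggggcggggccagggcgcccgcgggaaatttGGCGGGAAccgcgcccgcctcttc
MCM3: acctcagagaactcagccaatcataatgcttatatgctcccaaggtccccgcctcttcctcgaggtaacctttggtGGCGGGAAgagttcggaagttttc
PCNA: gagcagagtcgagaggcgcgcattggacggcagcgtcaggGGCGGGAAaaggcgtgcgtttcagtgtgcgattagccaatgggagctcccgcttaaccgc
The same stretch before CENPA, at chr2:26785956-26786055 (+), PLK1, at chr16:23678789-23678888 (+), and MKI67, at chr10:128126424-128126523 (-), has TTTGAA in capitals, which MKI67 holds in 2 places.
CENPA: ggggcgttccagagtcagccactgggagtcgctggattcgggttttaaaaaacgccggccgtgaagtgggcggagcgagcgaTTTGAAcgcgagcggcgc
PLK1: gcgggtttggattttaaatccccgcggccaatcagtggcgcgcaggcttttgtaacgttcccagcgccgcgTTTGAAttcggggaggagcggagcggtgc
MKI67: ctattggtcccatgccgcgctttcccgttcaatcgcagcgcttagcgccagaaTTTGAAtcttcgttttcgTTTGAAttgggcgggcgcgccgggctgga

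Brakes of the cycle moved in both directions. Of 37 tested CDK inhibitors and genes linked to quiescence, a reversible rest outside the cycle, 8 were higher and 16 lower. This was 64.9% called, against 37.8% of all genes, with a median of -0.15. Without shControl replicate 1 and without shControl replicate 2, 9 were lower. CDKN1C, which encodes the inhibitor p57, read 102 and 107.4 in shControl cells and 46.1 and 45.3 in shBEX2-1 cells and fell 2.29-fold, a log2 fold change of -1.20 (SE 0.089, adjusted p = 0.000402). CDKN1A, which encodes p21, fell by 0.68 (SE 0.16, adjusted p = 0.0177), with relative intensities of 12.9 and 12 in shControl cells and 7.68 and 7.81 in shBEX2-1 cells. Its call was lost with normexp correction and without shControl replicate 1, without shControl replicate 2 or without shBEX2-1 replicate 1. CDKN1B, which encodes p27, had a log2 fold change of 0.069 and CDKN2A of -0.14, neither past the threshold. With quantile normalization CDKN2A passed it. NR2F1, a nuclear receptor associated with dormancy of tumour cells, fell from 334 and 334 to 105 and 90.4, by 1.78 on the log2 scale (SE 0.099, adjusted p = 0.000211), and MXD4, a partner and antagonist in the MYC network, fell by 1.42. CDKN2D (1.53), the pocket protein RBL1 (1.58) and KLF2 (1.57) rose.

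The 32 p53 targets were split, with 5 higher and 9 lower (43.8% called, against 37.8% of all genes) and a median of -0.056. Those that fell were led by TP53INP1, a promoter of cell death and autophagy, at -1.83, the stress cytokine GDF15 at -1.71 and SESN2, an inhibitor of mTORC1 signalling, at -1.63. SESN2 is also counted in the list of the ATF4 stress response given below. GDF15 read 646 and 519 in shControl cells and 211 and 147 in shBEX2-1 cells. POLH (0.92), the decoy receptor TNFRSF10C (0.79) and BAX (0.58) rose, and the negative regulator MDM2 had 0.095, not past the threshold. The higher count was 3 without shControl replicate 2 and 3 without shBEX2-1 replicate 1.

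Several proteins that the study examined as partners of BEX2 are mitochondrial or belong to the CUL2 ubiquitin ligase. The ligase marks proteins for destruction, with CUL2 as scaffold, RBX1 as RING subunit, elongins B and C as adaptors, and FEM1B and others as substrate receptors. Of 14 tested genes of the ligase 4 were higher and 4 lower (57.1% called, against 37.8% of all genes). The sign of their median (-0.082) turned with normexp correction. CUL2 read 27.8 and 37.5 in shControl cells and 11.9 and 13.8 in shBEX2-1 cells, with a log2 fold change of -1.33 (SE 0.18, adjusted p = 0.00267), and in shBEX2-2 cells it read 22.7 and 23.2. FEM1B did not pass the threshold (0.085, adjusted p = 0.605), with 24.2 and 27.1 in shControl cells and 26.5 and 27.8 in shBEX2-1 cells, nor did FEM1A (-0.26), whose sign turned with normexp correction, or VHL (-0.17, which passed with quantile normalization), while FEM1C rose by 0.47, a call lost without either shControl array. LRR1 (PPIL5 on the array) at 1.47, RBX1 at 0.93 and elongin C (TCEB1) at 0.75 rose, and the receptors KLHDC2 (-0.61) and APPBP2 (-0.58) fell.

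TUFM, the elongation factor Tu of mitochondrial translation, read 1194 and 1139 in shControl cells and 1187 and 1204 in shBEX2-1 cells. The groups overlapped, with a log2 fold change of 0.036 (SE 0.080, adjusted p = 0.748), and the sign turned with quantile normalization and with normexp correction. HSPD1, the chaperonin HSP60, had 0.19 (adjusted p = 0.169). Others rose by small amounts, IVD, a mitochondrial enzyme of leucine breakdown, by 0.36 (SE 0.084, adjusted p = 0.0193) and PECR, a peroxisomal enoyl-CoA reductase, by 0.51 (SE 0.12, adjusted p = 0.0186). USF2, a transcription factor that the study also examined, rose by 0.33 (SE 0.081, adjusted p = 0.0212). IVD, PECR and USF2 each lost the call in 3 of the 4 fits without 1 array, those without either shControl array or without shBEX2-1 replicate 1.

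Nuclear genes of the respiratory chain shifted upward by small amounts. Complex I takes electrons from NADH, and 20 of its 38 genes were higher and 1 lower (55.3% called, against 37.8% of all genes), with a median of 0.37. For complexes II to V the counts were 21 higher and 0 lower of 40 (52.5% called), with a median of 0.40. The 2 medians were 0.20 and 0.19 with shNontarget as control and 0.26 and 0.28 with quantile normalization. NDUFA2 rose most in complex I, from 1120.0 and 1001 to 2576 and 2191, by 1.17 (SE 0.11, adjusted p = 0.000868), followed by NDUFB1 (0.75) and NDUFA6 (0.74). UQCR10 (UCRC on the array) of complex III rose by 0.98, though its other probes disagreed (-0.41 and 0.86), and COX7A2 (0.90) and COX7B (0.90) of complex IV rose as well. These counts leaned on single arrays. Without shControl replicate 2, 7 genes of complex I and 9 of complexes II to V were higher, and without shBEX2-1 replicate 1, 9 and 10.

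Of 76 genes of the mitochondrial ribosome, 33 were higher and 3 lower (47.4% called, against 37.8% of all genes), with a median of 0.27. Without shControl replicate 2, 16 were higher, and without shBEX2-1 replicate 1, 20. Mitochondrial translation factors and chaperones were mixed, with 7 higher and 4 lower of 27 (40.7% called, against 37.8% of all genes). Their median was -0.027, whose sign turned with median scaling. HSPE1, the partner of HSPD1, rose by 0.66 (SE 0.089, adjusted p = 0.00266) and GRPEL1 by 0.51. The protease LONP1 fell by 0.54, TFB2M of mitochondrial transcription by 0.40 and LRPPRC, which stabilises mitochondrial messenger RNA, by 0.35, and the last 2 calls were lost without either shControl array. TFAM, which packages mitochondrial DNA, rose by 0.42 (adjusted p = 0.0378), a call lost with quantile normalization and without shControl replicate 2 or shBEX2-1 replicate 1. Without single arrays the calls in this list ranged from 2 to 7 higher and from 1 to 4 lower.

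The ATF4 stress response had the highest share of falls among the 38 lists. ATF4 is a transcription factor made when translation is slowed by stress at the endoplasmic reticulum or by a lack of amino acids, and it drives genes of amino acid synthesis, uptake and charging onto transfer RNA. Of 41 tested genes of the response, 33 were lower and 1 higher (82.9% called, against 37.8% of all genes), with a median of -0.76. ATF4 itself had -0.32 (SE 0.11, adjusted p = 0.0683), not past the threshold, though it passed with quantile normalization and with normexp correction. The transcriptional regulator NUPR1 read 128 and 114 in shControl cells and 32.8 and 31.3 in shBEX2-1 cells, and it fell by 1.92 on the log2 scale (SE 0.10, adjusted p = 0.000199). DDIT3, which encodes CHOP, fell from 168 and 153 to 61.1 and 68.8, by 1.30, the pseudokinase TRIB3 fell by 1.26 and ATF3 fell by 0.78, though another ATF3 probe read 0.33. PHGDH, the first enzyme of serine synthesis, fell 2.60-fold, a log2 fold change of -1.38 (SE 0.084, adjusted p = 0.000263). ASNS, which makes asparagine, read 3803 and 3680.3 in shControl cells and 2088 and 1659 in shBEX2-1 cells and fell by 1.01 (SE 0.13, adjusted p = 0.00210). ALDH18A1, which starts proline synthesis, was the gene of the list that rose (0.31, adjusted p = 0.0372), a call lost without shControl replicate 1, without shControl replicate 2 or without shBEX2-1 replicate 1.

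ATF4 and its partners are known to bind elements with the letters TGATGNAA. Such letters lay in 9 of 25 (36.0%) promoters of the members called lower, and in 3.67% of all 27305 promoters of the same length. Promoters were found for 25 of the 33 members called lower. This list was also compiled by hand from known genes, so the share describes the list. The promoter of ASNS is shown as the best known case, with the last 100 bases before its start at chr7:97872409-97872508 (-) and the match in capitals.
ASNS: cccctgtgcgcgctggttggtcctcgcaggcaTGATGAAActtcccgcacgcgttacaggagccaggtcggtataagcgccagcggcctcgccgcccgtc
Chaperones of the endoplasmic reticulum, which are mainly driven by other factors, moved in both directions. Of 19 tested, 9 were higher and 2 lower (57.9% called, against 37.8% of all genes), with a median of 0.33. SDF2L1 (1.29), MANF (0.97) and CRELD2 (0.87) rose, DNAJB9 (-0.59) and the transcription factor XBP1 (-0.35) fell, and HSPA5, the chaperone BiP, had 0.14, not past the threshold. The call of XBP1 was lost without either shControl array or shBEX2-1 replicate 1, which left 1 lower.

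Interferons induce a set of antiviral genes through transcription factors that bind interferon response elements. Of 49 tested interferon-stimulated genes, 14 were higher and 1 lower (30.6% called, against 37.8% of all genes), with a median of 0.29, and 41 had a positive log2 fold change. OASL read 37.5 and 41.6 in shControl cells and 80.5 and 155 in shBEX2-1 cells, with a log2 fold change of 1.5 (SE 0.28, adjusted p = 0.00865), and RSAD2, which encodes viperin, read 26.3 and 30.6 in shControl cells and 53.7 and 106.5 in shBEX2-1 cells, with 1.42 (SE 0.30, adjusted p = 0.0132). The second shBEX2-1 array was the higher in both, as it was in MX1 (975 and 1925) and IFIT1 (717 and 1418). The list mean was 0.83 and 0.96 on the shControl arrays and 1.00 and 1.55 on the shBEX2-1 arrays on the normalized log2 scale. Without shBEX2-1 replicate 1, 30 genes were higher, with a median of 0.65, and without shBEX2-1 replicate 2, 11 were higher and 4 lower, with a median of 0.0082. OAS3 (1.31), ISG15 (0.73) and IFI27 (0.48) rose, the DNA sensor IFI16 fell by 0.51 (a call lost without either shControl array or shBEX2-1 replicate 1), and MX1 (0.76) and IFIT1 (0.41) did not pass the threshold. Both of these passed without shBEX2-1 replicate 1, and IFIT1 changed sign without shBEX2-1 replicate 2. With quantile normalization IFI27 and ISG15 lost the call, that of IFI27 being lost too without shControl replicate 2 or shBEX2-1 replicate 2, and with a robust variance prior OASL and RSAD2 lost theirs.

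The interferon response element was searched as GAAA, any 2 bases and GAAA again. These letters lay in 7 of 11 (63.6%) promoters of the members called higher, and in 3.65% of all 27305 promoters. Promoters were found for 11 of the 14 members called higher. The list holds genes known to respond to interferon, so the share describes the list. The promoters of IFI27, at chr14:94110636-94110735 (+), and OAS3, at chr12:112938374-112938473 (+), are shown as examples that lie within 100 bases of the start, with the match in capitals.
IFI27: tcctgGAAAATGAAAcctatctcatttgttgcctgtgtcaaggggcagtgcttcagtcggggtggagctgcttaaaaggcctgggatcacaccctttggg
OAS3: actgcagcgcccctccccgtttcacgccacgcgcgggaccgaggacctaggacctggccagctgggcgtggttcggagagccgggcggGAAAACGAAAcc
In MHC class I presentation, 7 of 22 genes were higher and 1 lower (36.4% called, against 37.8% of all genes). PSME2 (0.78) and PSMB9 (0.70) of the immunoproteasome and the chaperone CALR (0.72) rose and HLA-F fell by 0.58, while B2M had -0.16, not past the threshold. Without shControl replicate 2, 4 of these genes were higher. HLA genes are close paralogs, so that their values are uncertain.

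CD274, the checkpoint ligand PD-L1 that the study set against BEX2, read 41.6 and 38.1 in shControl cells and 112 and 95.8 in shBEX2-1 cells. It rose 2.60-fold, a log2 fold change of 1.38 (SE 0.11, adjusted p = 0.000540), and its other probe read 0.997. The study reported BEX2 among the RNAs raised on arrays of RBE cells with CD274 knocked down. It also compared CD274 and BEX2 as proteins across cell lines. With siRNA against either gene it reported no inverse regulation between them, in data it did not show. The other PD-1 ligand, PDCD1LG2, was not well above background on the shControl arrays and was at least 3.21-fold higher (adjusted p = 0.00539). MICB, a ligand of the activating receptor NKG2D, rose from 196 and 174 to 551 and 522, by 1.54 (SE 0.092, adjusted p = 0.000249), though its other probe read 0.64. MICA had 0.22 (adjusted p = 0.0589), just outside the threshold, and passed with the mean of its probes. Of 12 tested members of the B7 family and NKG2D ligands 4 were higher and 2 lower (50% called, against 37.8% of all genes). Those that fell were the inhibitory ligand VTCN1, by at least 2.67-fold (adjusted p = 0.0146) in cells where it was not well above background, and PVR, a ligand of TIGIT, by 0.45 (adjusted p = 0.0129), a call lost without shControl replicate 2. The fall of VTCN1 rests on dim readings, the call was lost without either shControl array and its sign turned with normexp correction.

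Secreted signals changed strongly in single genes. Serum amyloid A, an acute-phase protein of liver and epithelia, gave some of the largest rises. SAA2 read 417 and 362 in shControl cells and 5175 and 3914 in shBEX2-1 cells and SAA1 read 715 and 566 in shControl cells and 4128 and 3566 in shBEX2-1 cells, with log2 fold changes of 3.53 (SE 0.15, adjusted p = 0.000188) and 2.59 (SE 0.14, adjusted p = 0.000199). The pseudogene SAA3P was at least 10.8-fold higher. The genes share sequence, and the other SAA2 probe read 1.44, so that the share of each is uncertain. Of 23 tested acute-phase and complement genes, 8 were higher and 6 lower (60.9% called, against 37.8% of all genes). Among the latter was CD59, which protects cells from the membrane attack complex. It read 329 and 362 in shControl cells and 127 and 132 in shBEX2-1 cells. CD59 fell by 1.42 on the log2 scale (adjusted p = 0.000267). Among fits without 1 array, 1 to 4 were lower. C3 (0.072) and LCN2 (0.22) did not pass the threshold, and the sign of C3 turned with quantile normalization.

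Among 27 tested chemokines and cytokines, 15 were higher and 4 lower (70.4% called, against 37.8% of all genes), with a median of 0.37. CCL5, which attracts T cells, was not well above background on either shControl array and read 5.72 and 7.88 on the shBEX2-1 arrays, at least 7.38-fold higher (adjusted p = 0.00137). IL24 was at least 4.34-fold higher, the alarmin IL1A rose by 1.94, from 41.4 and 39.0 to 189 and 126, IL6 rose by 1.53 (SE 0.098, adjusted p = 0.000287) and the neutrophil chemokine CXCL1 by 0.53, the last being lost without either shControl array or shBEX2-1 replicate 1. CXCL8, named IL8 on the array, had -0.18, not past the threshold. CCL2, which attracts monocytes, read 231 and 238 in shControl cells and 46.7 and 40.5 in shBEX2-1 cells and fell 5.39-fold, a log2 fold change of -2.43 (SE 0.10, adjusted p = 0.000188). Its level on the shNontarget arrays was 49.1 and 28.1, and with these as control the sign turned. CCL28 fell by 1.55 and LIF fell by 0.88, though the other LIF probe read -0.024.

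Several proteases fell. Trypsins are digestive proteases of the pancreas that some tumour cells also make. PRSS1, cationic trypsinogen, read 469 and 414 in shControl cells and 20.5 and 17.0 in shBEX2-1 cells, a fall of 23.7-fold (log2 fold change -4.56, SE 0.12, adjusted p = 9.18e-05). PRSS1 has close paralogs, so the value may hold their signal. The list of trypsins and epithelial serine proteases also holds protease inhibitors and the receptor gene PLAUR. Of its 22 tested genes, 10 were lower and 2 higher (54.5% called, against 37.8% of all genes), with a median of -0.26. The membrane proteases TMPRSS4 (-1.94) and TMPRSS2 (-1.71) fell, and SPINK4, of a family of protease inhibitors (2.69), and PLAT, tissue plasminogen activator (0.84), rose. MMP7, matrilysin, read 6710.3 and 6977 in shControl cells and 358 and 540.3 in shBEX2-1 cells, a fall of 15.6-fold (log2 fold change -3.96, SE 0.19, adjusted p = 0.000189). It read 2335 and 1049 on the shNontarget arrays, also below shControl. MMP1, interstitial collagenase, rose from 411 and 364 to 1965 and 1305, by 2.05 (SE 0.19, adjusted p = 0.000761). Of 13 tested metalloproteinases and inhibitors, 3 were higher and 3 lower (46.2% called, against 37.8% of all genes). The sign of the median turned with normexp correction. Without shControl replicate 2 the counts were 1 and 1, and 1 was lower without shControl replicate 1 or shBEX2-1 replicate 2.

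Integrins are receptors that hold cells to the matrix, of which laminins are a part. Of 21 integrins and laminins, 8 were lower and 2 higher (47.6% called, against 37.8% of all genes). ITGB8, an integrin subunit that activates latent TGF-beta, read 205 and 238 in shControl cells and 44.5 and 54.1 in shBEX2-1 cells, with a log2 fold change of -2.17 (SE 0.13, adjusted p = 0.000249), and ITGB3 fell by 2.48 and ITGB5 by 1.15. LAMA3 rose by 0.54. LTBP1, which stores latent TGF-beta in the matrix, fell by 2.11 and INHBB, a subunit of activin and inhibin B, read 128 and 121 in shControl cells and 26.7 and 32.1 in shBEX2-1 cells, a fall of 4.26-fold (log2 fold change -2.09, SE 0.12, adjusted p = 0.000211). Of 12 tested inhibin, activin and TGF-beta ligands and regulators, 5 were lower and 1 higher (50% called, against 37.8% of all genes). The call of the higher gene was lost when any 1 array was left out. In the list of epithelial and mesenchymal state, 13 of 27 genes were lower and 5 higher, with members of both states among those that fell. This was 66.7% called, against 37.8% of all genes. The median was -0.35, and -0.069 with shNontarget as control. Without shControl replicate 2, 8 were lower and 3 higher, and without shBEX2-1 replicate 1, 3 were higher. The epithelial claudin CLDN3 read 298 and 280.1 in shControl cells and 96.7 and 90.8 in shBEX2-1 cells, a log2 fold change of -1.63, and E-cadherin, CDH1, fell by 0.30, a call lost with median scaling and when any 1 array was left out. Of mesenchymal genes VIM, vimentin, fell by 0.66 and TGFBI by 1.05, while the transcription factor SNAI1 rose by 0.88 and FN1, fibronectin, had -0.35, not past the threshold.

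Markers of bile duct epithelium were present, with 13 of 15 tested and KRT7 (31896 and 30098 in shControl cells and 40361 and 37623 in shBEX2-1 cells) and KRT19 (30616 and 29694 in shControl cells and 32410.3 and 32146 in shBEX2-1 cells) bright on all arrays. KRT7 and KRT19 did not pass the threshold, with 0.33 and 0.098, and their signs turned with quantile normalization. KRT8 (0.86) and KRT18 (0.49) rose, and the surface protein EPCAM (-0.27) fell. The call of EPCAM was lost with median scaling and when any 1 array was left out, and that of KRT18 with quantile normalization, without shControl replicate 2 and without either shBEX2-1 array. Of 10 fibroblast markers 4 were tested. DCN and POSTN were not well above background on the shControl arrays and were at least 3.96-fold and 4.17-fold higher, LUM rose from 58.9 and 58.5 to 122 and 133 and COL1A1 fell by 0.54, a call lost without shControl replicate 2 or shBEX2-1 replicate 1. The other 6 (COL1A2, COL3A1, PDGFRA, PDGFRB, THY1 and FAP) stayed near background on all 4 arrays. The fibroblast markers summed to 103 and 109 in shControl cells and 164 and 175 in shBEX2-1 cells, in percent of the 75th percentile. Hepatocyte markers summed to 26.1 and 24.3 against 30.6 and 37.9, with albumin near background on all 4 arrays, and endothelial markers to 18.8 and 22.9 against 22.9 and 19.7. Leukocyte markers summed to 327 and 285 against 446 and 381, where CD14 (0.56) and CD68 (0.51) rose and CD3E and NKG7 stayed near background on all 4 arrays. The part of these markers in the results was not tested.

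The study examined BEX2 as a gene of cancer stem cells, which are often recognised by aldehyde dehydrogenase activity, surface markers and resistance to gemcitabine. Of 15 tested aldehyde dehydrogenases, 5 were higher and 5 lower (66.7% called, against 37.8% of all genes), with a median of 0.080. ALDH1A3 read 4349 and 4329 in shControl cells and 5845 and 6283 in shBEX2-1 cells and rose by 0.48 (SE 0.095, adjusted p = 0.0102), a call lost without shBEX2-1 replicate 2. ALDH7A1 and ALDH3A2 rose by 0.48 and 0.47, though other probes of both read between -0.059 and 0.087. None of the 4 arrays read ALDH1A1 well above background. ALDH5A1 fell by 1.21, ALDH1L2 by 0.84 and ALDH3B1 by 0.57. Without shControl replicate 1 and without shControl replicate 2, 3 and 2 were higher and 2 and 3 lower. Of 16 tested stem cell markers, 10 were lower and 1 higher, with a median of -0.44, and without the shControl arrays in turn 6 and 5 were lower. Against shControl the median of these markers was -0.16 in shBEX2-2 cells and -0.13 in shNontarget cells. With shNontarget as control it was -0.13 in shBEX2-1 cells. PROM1, which encodes CD133, read 37.4 and 41.9 in shControl cells and 14.8 and 14.1 in shBEX2-1 cells, a log2 fold change of -1.45 (SE 0.12, adjusted p = 0.000572). The polycomb protein BMI1 fell by 1.11, though its other probe read -0.67, MYC fell by 0.59 and CD24 by 0.45 (lost with median scaling, without either shControl array and without shBEX2-1 replicate 1), while CD44 had -0.084, not past the threshold. ABCG2, a drug efflux pump, rose by 1.15 (adjusted p = 0.0266), with 2.67 and 4.49 in shControl cells and 7.75 and 7.59 in shBEX2-1 cells, a call lost without shControl replicate 1, shBEX2-1 replicate 1 or shBEX2-1 replicate 2.

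Gemcitabine enters cells through nucleoside transporters and is activated by DCK. Of 18 tested genes of its uptake, activation and targets, 6 were higher and 3 lower (50% called, against 37.8% of all genes). SLC29A1, the transporter ENT1, rose by 0.69 and CDA, which inactivates the drug, by 0.64, while DCK had 0.036, not past the threshold and of a sign that depended on single arrays. Its targets and rivals in nucleotide synthesis rose, with TYMS from 148 and 147 to 496 and 536 (1.80), RRM1 by 1.23 and RRM2 by 1.08, all of them also S phase genes. RRM2B (-0.68), DCTD (-0.64) and the ectonucleotidase NT5E (-0.40) fell, though other probes of RRM2B and NT5E read 0.59 and 0.16 and both calls were lost without either shControl array. The lower count was 1 without shControl replicate 1, shControl replicate 2 or shBEX2-1 replicate 1.

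In metabolism the changes were mixed. Of 25 NRF2 antioxidant genes, 9 were higher and 3 lower (48% called, against 37.8% of all genes). Their median changed sign with quantile normalization, where 5 were lower. With the replicate number as a block 7 were lower. TXNRD1, thioredoxin reductase, rose from 91.6 and 85.8 to 359 and 285 (1.85, adjusted p = 0.000311), AKR1C3 by 1.59, HMOX1 by 1.22 and NQO1 by 0.61, while the efflux pump ABCC3 fell by 1.05. Of 31 glycolysis and hypoxia genes, 13 were higher and 5 lower (58.1% called, against 37.8% of all genes). LDHA (0.90) and ADM (0.93) were among those that rose and NDRG1 (-1.24), SLC2A3 (-1.81) and VEGFA (-0.87) among those that fell. The higher count was 7 without either shControl array or without shBEX2-1 replicate 2, and the lower count was 3 without shBEX2-1 replicate 1. KDM3A fell by 1.31, but its shControl arrays read 53.1 and 22.1, and the call was lost with normexp correction and without either shBEX2-1 array. Cholesterol synthesis had 4 higher and 6 lower of 27 (37% called, against 37.8% of all genes). The sign of its median (-0.023) turned with median scaling and without shControl replicate 1. Without shControl replicate 1, 2 were higher and 1 lower, without shControl replicate 2, 1 and 4, and without shBEX2-1 replicate 1, 2 and 4.

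Of 25 immediate-early and MAPK feedback genes, 13 were lower and 4 higher (68% called, against 37.8% of all genes), with a median of -0.32. ETV4 and DUSP5, both induced by ERK signalling, fell by 1.13 and 1.12, JUNB fell by 0.99 and EGR1 by 0.59, while FOSL2 (1.55), FOSL1 (0.99) and DUSP4 (0.82) rose. DUSP5 read 84.0 and 85.0 in shControl cells and 36.3 and 41.5 in shBEX2-1 cells. FOS had -0.047, not past the threshold, and changed sign with normexp correction. Of 9 tested ERBB receptors and ligands 3 were higher and 3 lower (66.7% called, against 37.8% of all genes), with EGFR at 0.13, not past the threshold. The higher count was 1 without shControl replicate 1, shControl replicate 2 or shBEX2-1 replicate 1. Keratins gave 3 higher and 6 lower of 16, mucins and trefoil factors 1 and 4 of 10, metallothioneins 2 and 0 of 11, and S100 proteins 1 and 0 of 11. The shares called were 56.2%, 50%, 18.2% and 9.09% in that order, against 37.8% of all genes. Of the metallothioneins 6 were higher without shControl replicate 1 and with the replicate number as a block, 3 without shBEX2-1 replicate 2 and 0 without shControl replicate 2 or shBEX2-1 replicate 1. Of the S100 proteins 3 were higher without shBEX2-1 replicate 2 and 0 without shControl replicate 2 or shBEX2-1 replicate 1, and the mucin or trefoil gene called higher lost its call without either shControl array or shBEX2-1 replicate 2. Of 58 cytosolic ribosomal protein genes, 1 was higher and 3 lower (6.9% called, against 37.8% of all genes). The counts were 0 and 23 with quantile normalization and 17 and 5 with the replicate number as a block. Without 1 array, 0 to 2 were higher and 0 to 2 lower. Medians of keratins, ERBB genes and ribosomal proteins changed sign with quantile normalization, that of mucins with normexp correction and that of S100 proteins with median scaling.

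**Figure D2:**
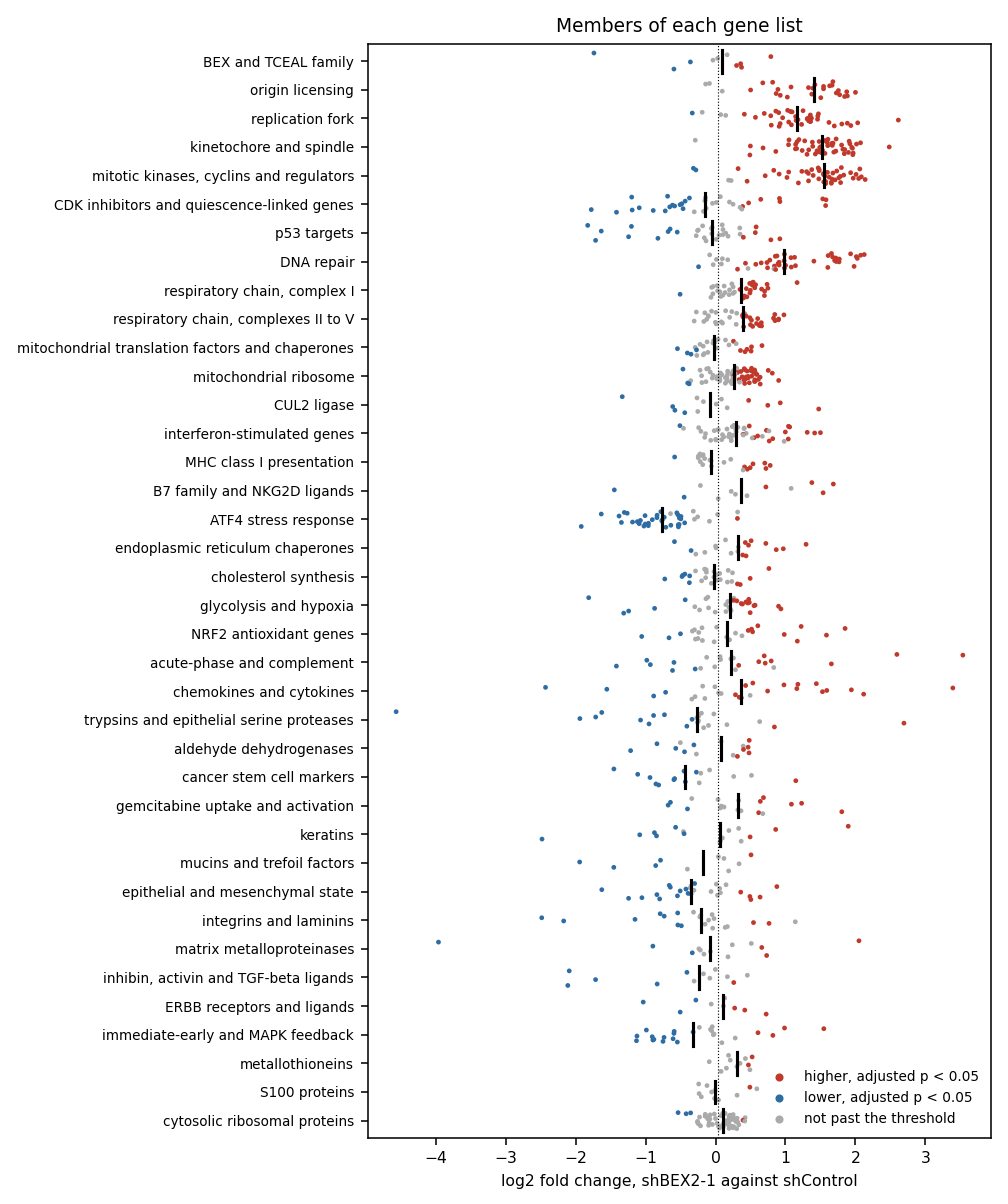
Log2 fold change of each tested member of the 38 gene lists, shBEX2-1 against shControl, with 1 point for each gene coloured by its call, the list median as a black bar and the median of all genes (0.041) as a dotted line. Origin licensing, replication fork, kinetochore and mitotic genes lie to the right with medians from 1.17 to 1.55, and the ATF4 stress response lies to the left with a median of -0.76.

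The genes named next were, with SAA2, SAA3P and CCL5, among the largest rises of probes with a gene symbol that were well above background on both shBEX2-1 arrays. OLR1, the scavenger receptor LOX-1 for oxidised lipoprotein, read 3.69 and 3.38 in shControl cells and 93.4 and 63.7 in shBEX2-1 cells, a rise of 21.8-fold (log2 fold change 4.45, SE 0.20, adjusted p = 0.000188). MFAP5, a glycoprotein of elastic microfibrils, read 16.1 and 15.95 in shControl cells and 267 and 292 in shBEX2-1 cells, a rise of 17.4-fold (log2 fold change 4.12, SE 0.094, adjusted p = 8.92e-05), and HAPLN1, which links hyaluronan to proteoglycan, rose 11.5-fold. FLG (filaggrin), IL7R (the interleukin-7 receptor), CR2 (complement receptor 2), HBB (beta globin), TMEM52B (C12orf59 on the array) and CIITA (the regulator of MHC class II genes) were not well above background on either shControl array. They were at least 17.9-fold, 11.6-fold, 13.6-fold, 12.4-fold, 6.66-fold and 8.39-fold higher, with adjusted p-values between 0.000311 and 0.00178. IL7R read 11.4 and 9.82 and CIITA read 9.30 and 9.85 on the shBEX2-1 arrays. The other probes of FLG read 2.22 and 3.99, and HBB shares sequence with other globin genes.

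Among probes with a gene symbol that were well above background on both shControl arrays, the largest falls after PRSS1 and MMP7 included PKIB. PKIB, an inhibitor of protein kinase A, read 9.89 and 11.8 in shControl cells and 0.858 and 0.662 in shBEX2-1 cells, and was at least 7.10-fold lower (adjusted p = 0.000549). LONRF2, RENBP (the renin-binding protein), LEMD1, WNT11, ABTB3 (BTBD11 on the array), SEMA5B and AXIN2 were not well above background on either shBEX2-1 array and were at least 7.88-fold, 6.42-fold, 5.20-fold, 6.36-fold, 9.03-fold, 4.74-fold and 5.20-fold lower. WNT11 is a secreted Wnt ligand, and AXIN2 a feedback inhibitor that Wnt signals induce. AXIN2 read 7.02 and 8.91 in shControl cells and 0.706 and 1.30 in shBEX2-1 cells. TLE2, a corepressor of the Groucho family, read 16.4 and 20.5 in shControl cells and 1.72 and 2.94 in shBEX2-1 cells, and fell by 3.03 on the log2 scale (SE 0.30, adjusted p = 0.000964). With normexp correction LEMD1 and SEMA5B lost the call. Since these probes were near background in one group, their order by fitted change is uncertain.

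**Figure D3:**
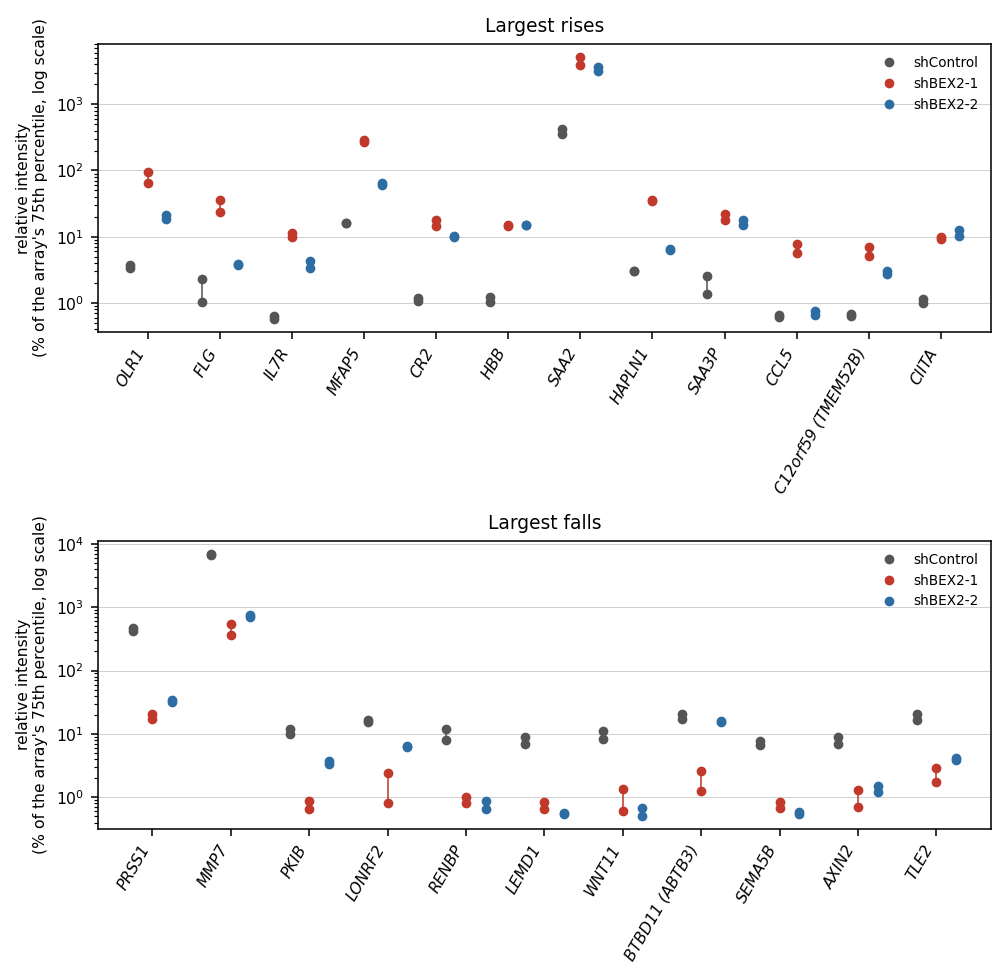
Relative intensity of the genes with the largest rises (upper panel) and falls (lower panel) among probes with a gene symbol and well above background on both arrays of the brighter group, in percent of the array's 75th percentile on a log scale, with 1 point for each array of shControl, shBEX2-1 and shBEX2-2. The genes were selected so that both shBEX2-1 arrays lie beyond both shControl arrays. CCL5 stays near the shControl level in shBEX2-2 cells (0.750 and 0.651), and so does ABTB3 (BTBD11, 16.04 and 15.3).

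To compare the 2 hairpins, shBEX2-1 cells were compared with shBEX2-2 cells in a fit over 6 arrays with shControl. Of 21317 genes tested, 2869 (13.5%) differed by limma, 1397 (6.55%) higher and 1472 (6.91%) lower in shBEX2-1 cells. Of the 38 lists, the interferon-stimulated genes had the highest share that differed between the sublines, with 44 of 49 higher in shBEX2-1 cells and 0 lower. RSAD2 read 1.32 and 1.89 in shBEX2-2 cells, against 53.7 and 106.5 in shBEX2-1 and 26.3 and 30.6 in shControl cells, and was not well above background in shBEX2-2 cells, so that it was at least 47.9-fold higher in shBEX2-1 cells (adjusted p = 0.000273). OASL differed by 3.68 (SE 0.26, adjusted p = 0.000571) and MX1 by 3.26 (SE 0.28, adjusted p = 0.000980) on the log2 scale. Each subline's own median against shControl was 0.29 in shBEX2-1 and -0.98 in shBEX2-2 cells. On the shNontarget arrays RSAD2 read 8.68 and 6.43, below shControl as well.

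The cell cycle lists had positive medians against shControl in both sublines, 1.41 and 1.83 for origin licensing and 1.53 and 1.90 for kinetochore and spindle genes, where both comparisons share the shControl arrays and 46.6% of all genes were called with the second hairpin (22.5% higher and 24.1% lower). The shBEX2-2 arrays also lay in row 2 of the slide, so that slide row and group cannot be told apart in either comparison. Between the sublines 15 of 28 and 29 of 51 were lower in shBEX2-1 cells, and 0 higher in either list. E2F1 differed by -0.75 (SE 0.078, adjusted p = 0.00181). For the ATF4 response the medians were -0.76 and -0.99, and 16 of 41 genes were higher in shBEX2-1 cells and 1 lower, with NUPR1 at 1.61 (SE 0.12, adjusted p = 0.000652) and ASNS at 1.34 (SE 0.11, adjusted p = 0.000888). CD274 was lower in the first subline by a small amount, -0.40 (SE 0.10, adjusted p = 0.0407).

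Single genes of other groups also differed between the sublines. INHBB read 173.2 and 144 in shBEX2-2 cells, against 26.7 and 32.1 in shBEX2-1 cells, and differed by -2.43 (SE 0.12, adjusted p = 0.000206). CCL5 (at least 7.38-fold, adjusted p = 0.00458), LUM (2.19, SE 0.100, adjusted p = 0.000206) and MFAP5 (2.15, SE 0.088, adjusted p = 0.000206) were higher in shBEX2-1 cells. CUL2 (-0.84, SE 0.16, adjusted p = 0.0165), BMI1 (-1.08, SE 0.091, adjusted p = 0.000939), CLDN3 (-1.002, SE 0.079, adjusted p = 0.000844) and DUSP5 (-1.01, SE 0.091, adjusted p = 0.00112) were lower in shBEX2-1 cells. PRSS1, although low in both sublines (32.2 and 34.0 in shBEX2-2 cells), also differed between them, by -0.83 (SE 0.12, adjusted p = 0.00535). These counts depended on single arrays, with 1545 genes without shBEX2-1 replicate 1, 745 without shBEX2-2 replicate 1 and 614 without shBEX2-2 replicate 2, and with the replicate number as a block the count was 4360. BEX2 itself did not differ past the threshold between the sublines (adjusted p = 0.195).

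**Figure D4:**
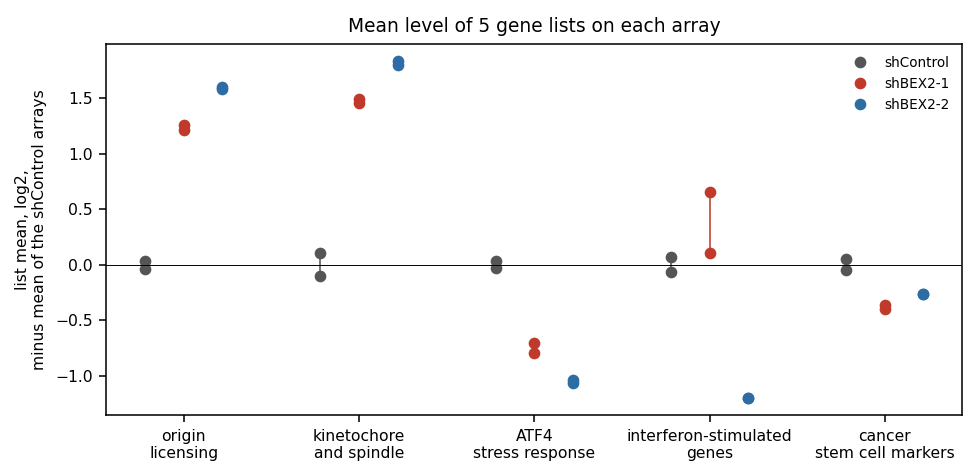
Mean log2 level of 5 gene lists on each array, minus the mean of the 2 shControl arrays, with 1 point for each array and a line joining the 2 arrays of a vector. Interferon-stimulated genes lie above shControl in shBEX2-1 cells and below it in shBEX2-2 cells, with a gap between the 2 shBEX2-1 arrays.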

How the data were processed

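Total RNA of HuCCT1 cells was labelled with Cy3 by the Low Input Quick Amp method and read on single-colour Agilent arrays. Per the labels' processing notes, Feature Extraction 10.7.3.1 made the files. The deposited processed intensity of each spot had been background-subtracted and detrended by the authors' software but not scaled between arrays, with surrogates for 20.7% to 22.5% of spots on the 4 arrays used. The deposited series table holds the same intensity values to within 0.497%.

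Each intensity was taken as log2 minus the 75th percentile of the non-control spots of its array, spots of a probe were averaged, and the brightest probe stood for a gene. Probes were kept if 2 or more of the 4 arrays read them well above background (20541 genes), and limma 3.58.1 in R 4.3.3 (variance trend, Benjamini-Hochberg adjustment, threshold 0.05) compared the vectors, with groups taken from the labels. For 8 genes 1 value was missing and the fit used the others. The sublines were compared in a fit over 6 arrays. SE is the standard error of the fitted log2 fold change, with 2 arrays a group. Where no array of a group was well above background, a fold is a bound, in which each dim array took the higher of the probe's own signal and the lowest signal well above background. Such a bound holds for this background correction only. With normexp correction, run with an offset of 50, the change of BEX2 was smaller and that of VTCN1 changed sign. The procedure was tested on simulated data. Alternatives changed the scaling, background correction, filter, probes, spread, control, block and arrays used. The rank product of the study's methods was not run, since it permutes genes within arrays.

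The arrays of a vector carry numbers, and names of the deposited files give each number a day of its own, so the numbers were taken to pair the samples. The main fits did not use this pairing, and the replicate number entered as a block only in an alternative. The difference between replicates correlated by r = 0.16 across 20541 genes between the vectors, where genes are not independent replicates. The members and the gene lists were chosen with earlier results of these data known. The 38 lists overlap, with 17 genes in several of them. The text names the BEX and TCEAL genes, genes the study worked with, the 12 largest rises and falls among named probes well above background on both arrays of the brighter group, members from among the 3 of largest change in each direction of the lists that are described gene by gene, and genes chosen for their role, which carry no claim. Cholesterol synthesis, keratins, mucins, ERBB genes, metallothioneins, S100 proteins and ribosomal proteins are given by counts. Some genes that the rule gave are not reported here. Promoters come from RefSeq (GRCh38.p14).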

Additional observations from a re-analysis of the deposited data

Results flagged for a closer look

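The response to the second hairpin was read on the same slide, and 97 of the 221 tested genes named in the report differed between the sublines by limma, 46 higher and 51 lower in shBEX2-1 cells, with adjusted p-values from 0.000206 to 0.0491, against 2869 of 21317 (13.5%) over all genes tested. Many of the named genes were chosen for a large change from shControl, so their share is not that of a random set. The direct test of the difference between the sublines set them aside, and values below are log2 differences, shBEX2-1 minus shBEX2-2. Single arrays far from their group were not sought, since groups of 2 arrays give no such test.

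In the family of BEX2, the differing genes were BEX5 (0.48), TCEAL8 (0.37) and TCEAL9 (-0.52). Of genes of replication and mitosis, all those that differed were lower in shBEX2-1 cells, namely CDC45 (-0.49), GINS1 (-0.52), MCM10 (-0.63), MCM3 (-0.46), CDT1 (-0.36), PCNA (-0.48), TYMS (-0.77), RRM1 (-0.37), RRM2 (-0.93) and BRCA1 (-0.46) at S phase and E2F1 (-0.75), SPC25 (-0.46), CDCA3 (-0.34), CENPA (-0.41), CCNB1 (-0.35), PLK1 (-0.44), TOP2A (-0.53) and CCND1 (-0.45) elsewhere in the cycle. Among inhibitors of the cycle and p53 targets the differences were CDKN2D (-0.46), CDKN1C (0.52), CDKN2A (0.50) and MDM2 (-0.53). CUL2 differed by -0.84.

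All interferon genes in this set were higher in shBEX2-1 cells, RSAD2 (5.58), OASL (3.68), MX1 (3.26), IFIT1 (2.36), IFI27 (1.75), ISG15 (1.36), OAS3 (1.06) and IFI16 (1.04), and so was PSME2 (0.39) of the immunoproteasome. Of immune ligands CD274 (-0.40), PVR (-0.55) and MICA (-0.31) were lower. In the ATF4 response and at the endoplasmic reticulum NUPR1 (1.61), ASNS (1.34), PHGDH (0.81), ATF4 (0.50), DDIT3 (0.41), ALDH1L2 (1.37), XBP1 (0.37) and HSPA5 (0.41) were higher and ATF3 (-0.48) was lower. Among secreted proteins, receptors and markers of other cells CCL5 (3.26), IL1A (0.85), IL6 (0.53), C3 (0.89), OLR1 (1.97), FLG (2.92), IL7R (1.47), MFAP5 (2.15), HAPLN1 (2.46), DCN (2.68), LUM (2.19) and MMP1 (0.96) were higher, and CCL2 (-1.09), CD59 (-0.49), CD68 (-0.56), INHBB (-2.43), LTBP1 (-0.99), SPINK4 (-0.60), PRSS1 (-0.83), TMPRSS4 (-1.66), TMPRSS2 (-0.80) and MMP7 (-0.72) lower.

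Of genes of metabolism and drug handling AKR1C3 (0.97), HMOX1 (0.77), NQO1 (0.79), ABCC3 (0.70), VEGFA (0.82), ALDH1A3 (0.44), ALDH7A1 (0.42) and ALDH3B1 (0.85) were higher and NDRG1 (-0.98), SLC29A1 (-0.79), DCK (-0.50) and TFB2M (-0.28) lower. Of adhesion, state and signalling genes ITGB3 (2.05), LAMA3 (0.55), KRT7 (0.38), JUNB (0.70) and EGR1 (0.44) were higher and PROM1 (-0.83), BMI1 (-1.08), CLDN3 (-1.002), VIM (-0.71), EPCAM (-0.29), ETV4 (-0.57), DUSP5 (-1.01), DUSP4 (-0.26), PKIB (-2.21), LONRF2 (-2.18) and ABTB3 (-3.13) lower. RSAD2, CCL5, ITGB3 and DCN were not well above background on the shBEX2-2 arrays, and were at least 47.9-fold, 7.38-fold, 3.13-fold and 4.91-fold higher in shBEX2-1 cells. PKIB, LONRF2 and ABTB3 (BTBD11 on the array) were not well above background on the shBEX2-1 arrays, and were at least 2.30-fold, 3.14-fold and 7.51-fold lower there.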

How the results depend on the processing

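Of the 194 called genes named in the report, 145 kept their direction and their side of the threshold under all 15 alternatives that did not use the shNontarget arrays. Against 7761 called genes (3940 higher, 3821 lower), sharing the spread of all 8 arrays left 1115 (543 and 572), with BEX2 at -1.74 and an adjusted p of 0.0766. shNontarget as control and Student's t-test each left 0 (1535 and 6843 at an unadjusted p under 0.05), the former with BEX2 at -2.14 (adjusted p = 0.583). A minimum log2 fold change of 1 left 1760 (978 and 782). Normexp correction gave 10262, 6883 of them higher, with BEX2 at -0.27 (adjusted p = 0.21), and the filter on dim probes, when lifted, left 6521, with the median of all genes at 0.15. Leaving out 1 array, where the lone array of its group is assumed to vary like the other group, gave 4630 to 7552 called genes, 2304 to 3897 higher and 2326 to 3655 lower, and BEX2 from -2.01 to -1.46 with the call kept. shControl replicate 2 (4630 without it) moved the count by more than 1.5 times. The cause of these shifts was not tested.

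The replicate number as a block gave 8767 called genes (4610 and 4157), and it changed no call among the called genes named in the report and brought ATF4, MX1, MICA, KRT7 and LCN2 past the threshold. Between the sublines it gave 4360 in place of 2869, with 2323 higher and 2037 lower, and normexp correction gave 2258 higher. Without 1 array that comparison gave 614 to 2957, with 280 to 1529 higher and 334 to 1428 lower. List counts that leaned on 1 array are given beside most lists in the report.

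Signs that turned belonged, apart from the called genes VTCN1, ADM, CCL2, LAMA3, CDH1, EPCAM and CD24, to genes not past the threshold. With shNontarget as control the log2 fold changes were TCEAL1 -0.22, ADM -0.29, CCL2 0.23, LAMA3 -0.24, CDH1 0.26, EPCAM 0.100, FEM1B -0.21, TUFM -0.084, CDKN1B -0.17, CDKN2A 0.32, B2M 0.15, EGFR -0.036, CD24 0.30, IL8 0.20 and FN1 0.57. With quantile normalization they were NGFRAP1 -0.030, TUFM -0.078, KRT7 -0.027, KRT19 -0.19 and C3 -0.13, and with normexp correction TCEAL1 -0.0021, TCEAL2 0.061, VTCN1 0.25, TUFM -0.042, FOS 0.14 and FEM1A 0.075. Leaving out 1 array moved TCEAL1 from -0.028 to 0.089, TCEAL2 from -0.12 to 0.042, IFIT1 from -0.082 to 0.90, B2M from -0.32 to 0.0037, HSPA5 from -0.0094 to 0.29, DCK from -0.050 to 0.12, C3 from -0.0042 to 0.15 and FOS from -0.15 to 0.059. Readings near background limit all genes that were not well above it in one group, BEX2 included.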

Other observations

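Genes of the Wnt pathway were counted after the falls of WNT11 and AXIN2 had been seen, so that the lists carry no test. Fitted log2 fold changes are in parentheses, and those of WNT11 and AXIN2 rest on readings that were not well above background in shBEX2-1 cells. Wnt ligands bind Frizzled and LRP receptors, which stabilises beta-catenin and drives feedback targets such as AXIN2 and ZNRF3. Of 11 tested ligand and secretion genes 1 was higher and 6 lower in shBEX2-1 cells. WNT5A (2.01), a ligand known mostly for signalling without beta-catenin, rose, and WNT11 (-3.40), WNT7B (-0.45), WNT7A (-0.91), WNT6 (-1.97), WNT10A (-0.67) and GPR177, the secretion factor WLS (-1.70), fell. Among 13 receptors FZD4 (0.44) rose and FZD3 (-1.29), FZD6 (-0.76) and FZD7 (-0.67) fell. Of 13 effectors APC (0.66) and TLE1 (0.26) rose, and AXIN1 (-0.38), DVL2 (-0.33), TCF7 (-1.14), TLE2 (-3.03) and TLE3 (-0.57) fell. Of 5 tested feedback targets and inhibitors DKK1 (1.27) rose and AXIN2 (-3.04) and ZNRF3 (-0.75) fell. The medians were -0.45, -0.21, -0.25 and -0.0067 for ligands, receptors, effectors and feedback genes, against 0.041 for all genes. Over all genes 37.8% were called. Beta-catenin itself (CTNNB1, 0.089, adjusted p = 0.439) did not pass the threshold.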
